A study of Drosophila melanogaster with 16 samples.

Results

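BS elements and G elements are families of LINE-like retrotransposons of Drosophila melanogaster, and the deposited tables list them row by row under the names BS, BS3, BS4, G-element and G followed by a digit. That rule gave 10 of the 125 transposon families of the series, 3 BS rows and 7 G rows. All 10 were measured by ChIP-seq, whereas 8 of 119 families in RNA-seq and 8 of 122 in GRO-seq were members, since BS4 and G7 had a row in the ChIP-seq table only. G5A, whose name adds a letter to G5, was not counted as a member.

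LINE-like elements have no long terminal repeats. They are transcribed from their own 5' end, and a reverse transcriptase encoded by the element copies the transcript back into DNA at a nick in the chromosome. BS and G belong to the jockey clade of such elements, together with jockey, Doc and the F-element. In the fly ovary, transposon RNA is held down by piRNAs, small RNAs that are largely antisense to transposons and that guide Piwi, a nuclear Argonaute protein, to nascent transcripts, where H3K9me3, a histone mark of silent chromatin, is deposited.

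All samples were ovaries of flies aged 3 to 5 days and kept at 25 degrees. The groups were Tj-GAL4 knockdown of piwi against Tj-GAL4 knockdown of white, and nos-GAL4 knockdown of piwi against nos-GAL4 knockdown of white, where white is an eye colour gene used as the control target. The tj driver is active in the somatic cells around the germline and the nos driver in the germline, while whole ovaries with both cell kinds were measured, so cells in which a driver is silent are part of every value. RNA-seq of 150 ng of total RNA gave the steady-state level. GRO-seq, in which engaged polymerases are run on in isolated nuclei, gave the nascent level from about 100 ovaries. ChIP-seq of 50 ovaries gave H3K9me3 beside the input DNA of the same line.

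Each of the 16 samples was the only one of its group. For RNA-seq 2 replicates are stated, but a single deposited value per condition and strand was used, so no value has a replicate spread and no test between conditions was possible. The ChIP-seq libraries held 2514000 to 3047000 reads as inferred from their RPM, taking the smallest total found that made every value a whole read. Depth of the RNA-seq and GRO-seq libraries was not recovered from the tables, so no counting interval is given for their RPM (reads scaled to a fixed total per library). Reads of related families may be shared between rows, and host genes, piwi included, were not analysed here, so neither the knockdowns nor the cell make-up of the ovaries was checked. Fewer cells of a type and less RNA per cell cannot be told apart in these whole-tissue samples.

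In RNA-seq, 4 member rows had a value under 1 RPM, counting each strand as a row, all of them under the nos driver. These were sense RNA of the G-element in white knockdown, of G3 in both knockdowns and of G6 in white knockdown, and antisense RNA of G6 in white knockdown, which was listed at 0. No member was under 1 RPM in GRO-seq. In ChIP-seq, BS4 and G7 were under 40 RPM in all 4 input libraries, at 9.59 to 12.8 RPM and 8.64 to 14.4 RPM, and the other 8 members were above it.

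Knockdown of piwi in the germline was accompanied by more sense RNA of 3 G elements. The G-element itself had 42.0 RPM in nos piwi knockdown, against 0.984 RPM in nos white knockdown. G6 had 16.0 RPM in nos piwi knockdown, against 0.433 RPM in nos white knockdown. G5 had 11.4 RPM in nos piwi knockdown, against 2.81 RPM in nos white knockdown. As ratios of RPM + 1, the scale used for every RNA ratio here, these were 21.7-fold, 11.8-fold and 3.26-fold, and that scale understates the change of rows near or under 1 RPM. The control value of G6 was 3.00 times the smallest non-zero value of its column, 0.144 RPM, and how many reads that is was not recovered.

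These 3 of 8 members passed a size of 2-fold, used here as the mark for counting, and 0 members were 2-fold lower. Of the 113 families that averaged 1 RPM or more across the 4 conditions, 52.2% were at least 2-fold higher, so the share among BS and G elements was not above the background. The median log2 ratio was 0.43 over the 8 members and 1.098 over all families. Relative to that median family, the G-element, G5 and G6 were higher and the other 5 members lower. After centring on it 2 members were past the mark, the G-element and G6, and G5 was at a log2 ratio of 0.61.

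The remaining members were less than 2-fold from their control in sense RNA under nos on the RPM + 1 scale. BS, the member with the most RNA per input DNA, had 1754 RPM in nos piwi knockdown, against 1373 RPM in nos white knockdown (1.28-fold). G4 had 8.60 RPM in nos piwi knockdown and 7.79 RPM in nos white knockdown (1.09-fold). BS3, G2 and G3 were 1.35-fold, 1.24-fold and 1.34-fold the control. Without the added 1 RPM, G3 was 2.06-fold (0.956 RPM in nos piwi knockdown, 0.463 RPM in nos white knockdown). BS3 was 1.60-fold in that way (2.23 RPM in nos piwi knockdown, 1.39 RPM in nos white knockdown). With 1 RPM added, all 5 ratios lay below that of the median family, so each falls below 1 when centred on it.

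**Figure D1:**
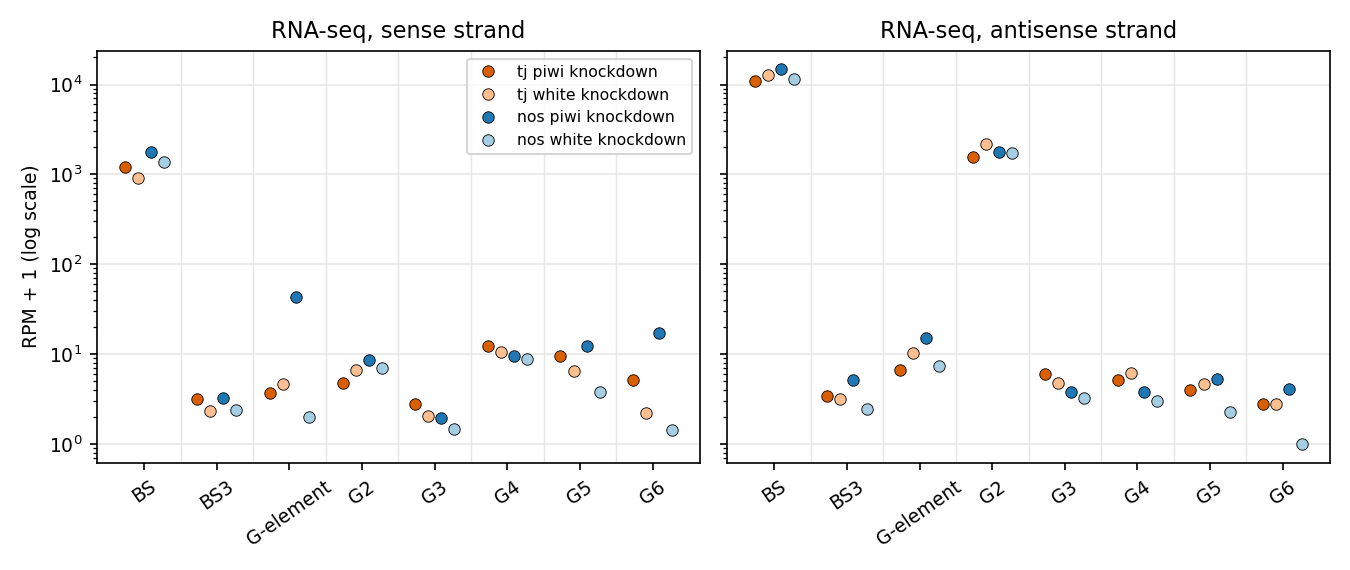
RNA-seq level of each BS and G element with a row, as RPM + 1 on a log axis, for the sense strand (left) and the antisense strand (right), with 1 point per condition. Under nos, sense RNA of the G-element (42.0 against 0.984 RPM) and G6 (16.0 against 0.433 RPM) stands apart from its control, while antisense RNA of BS and G2 is high in all 4 conditions.

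Under the tj driver, which acts in somatic cells, 1 member passed the mark. Sense RNA of G6 was 4.14 RPM in tj piwi knockdown and 1.19 RPM in tj white knockdown (2.34-fold). Background for this count was 38.9% of 113 families higher and 1.77% lower. The G-element, so much higher under nos, had 2.63 RPM in tj piwi knockdown and 3.67 RPM in tj white knockdown (0.778-fold), and G2 had 3.70 RPM in tj piwi knockdown and 5.65 RPM in tj white knockdown (0.706-fold).

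BS sense RNA was 1195 RPM in tj piwi knockdown and 901 RPM in tj white knockdown (1.33-fold). G5 was 1.45-fold, BS3 1.38-fold, G3 1.33-fold and G4 1.17-fold the control. The median log2 ratio was 0.41 over the 8 members and 0.69 over all families, and 7 of the 8 members lay below the median family. After centring on it 0 members were 2-fold higher, and the G-element and G2 were 2-fold lower.

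The 3 G elements that passed the mark under nos differed in how the drivers compared. The G-element had a log2 ratio of 4.44 under nos and -0.36 under tj. G6 had 3.57 under nos and 1.23 under tj, and G5 had 1.70 under nos and 0.54 under tj. For 5 of 8 members the ratio was larger under nos, but for G2, G3, BS, BS3 and G4 the drivers differed by less than 1 log2 unit. None of these differences was tested. Both the control level and the knockdown level enter the contrast of the G-element, since its sense RNA in white knockdown was 0.984 RPM under nos and 3.67 RPM under tj.

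G5A, the row closest to G5 by name, did not follow it. Its sense RNA was 8.02 RPM in nos piwi knockdown and 9.50 RPM in nos white knockdown (0.859-fold), beside the 3.26-fold of G5. How reads were divided between these rows was not tested.

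**Figure D2:**
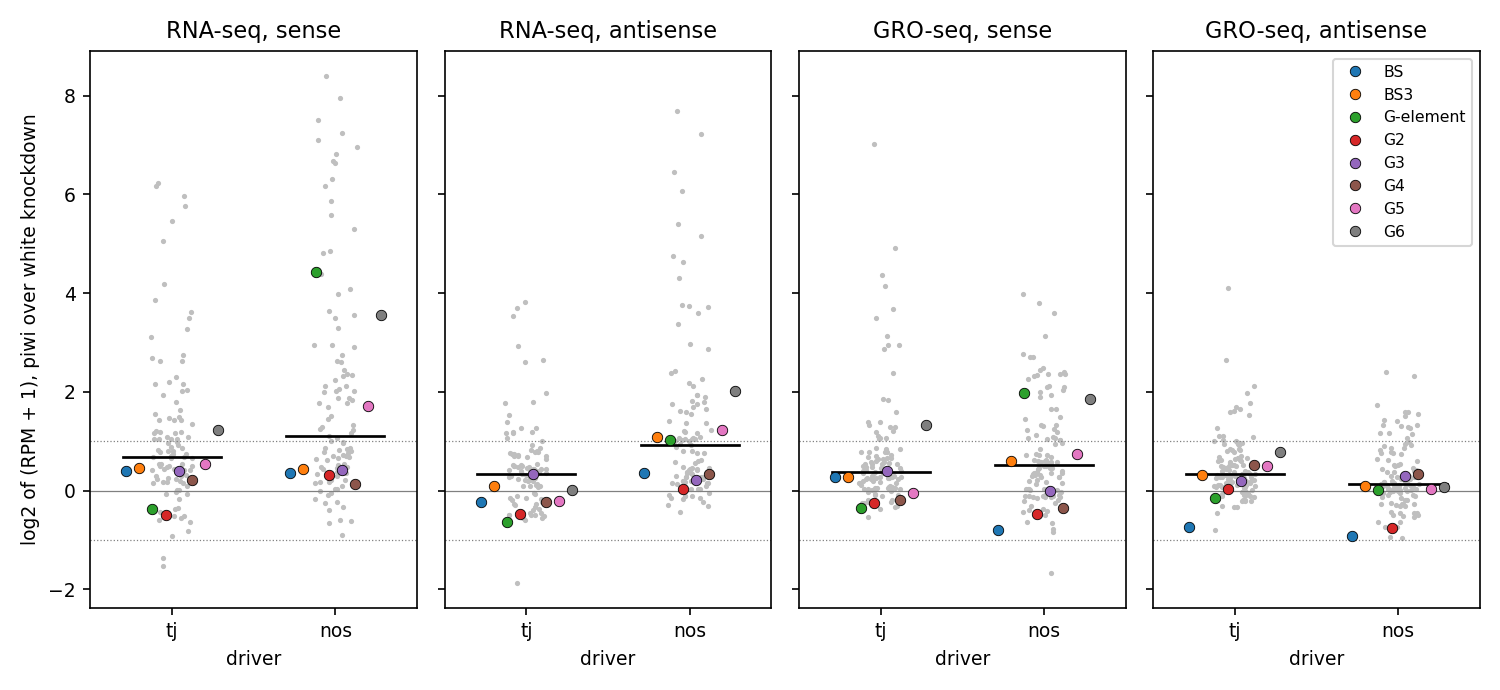
Log2 ratio of RPM + 1 in piwi over white knockdown under each driver, for both strands of RNA-seq and GRO-seq. Coloured points are the 8 members, grey points the other families past the filter, the black bar is the median of all families and the dotted lines mark 2-fold. The G-element (4.44) and G6 (3.57) stand above the bar in RNA-seq sense under nos, and BS stands near the low end in both antisense panels of GRO-seq (-0.75 under tj, -0.91 under nos).

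Nascent RNA was then compared, to see whether transcription differed too. Under nos the same G-element and G6 passed the mark on the sense strand. The G-element had 64.7 RPM in nos piwi knockdown, against 15.8 RPM in nos white knockdown (3.92-fold), and G6 had 20.8 RPM in nos piwi knockdown, against 4.98 RPM in nos white knockdown (3.64-fold). G5 was 1.68-fold higher, at 51.3 RPM in nos piwi knockdown and 30.04 RPM in nos white knockdown. The nascent ratios of all 3 were smaller than their steady-state ratios, but the assays were scaled separately and the gap was not tested.

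Background was 34.4% of 122 families at least 2-fold higher and 0.82% lower in that comparison, and 2 of 8 members were higher and 0 lower. The median log2 ratio was 0.30 over the members and 0.52 over all families. BS, in contrast, had less nascent sense RNA, at 12.9 RPM in nos piwi knockdown and 23.1 RPM in nos white knockdown (0.580-fold), rank 3 from the lowest of 122. G2 had 6.54 RPM in nos piwi knockdown and 9.53 RPM in nos white knockdown (0.716-fold). With centring on the median family, BS and G2 were 2-fold lower.

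Under tj, nascent sense RNA of G6 was 17.4 RPM in tj piwi knockdown and 6.30 RPM in tj white knockdown (2.52-fold), the only member past the mark, beside a background of 21.3% higher and 0% lower. The other 7 members lay between 0.782-fold for the G-element (9.37 RPM in tj piwi knockdown, 12.3 RPM in tj white knockdown) and 1.31-fold for G3. G6 was thus the only member at least 2-fold higher in sense RNA of both assays under both drivers. Its tj ratios fell short of the mark once centred on the median family, with log2 values of 0.54 in RNA-seq and 0.95 in GRO-seq.

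Antisense nascent RNA held 0 members past the mark under either driver, where 13.9% of families under tj and 14.8% under nos were at least 2-fold higher and 0% lower in both. BS was the member that stood apart. Its antisense nascent RNA was 120 RPM in tj piwi knockdown, against 202 RPM in tj white knockdown (0.597-fold), and 84.4 RPM in nos piwi knockdown, against 160 RPM in nos white knockdown (0.531-fold). From the lowest of 122 families it ranked 2 under tj and 3 under nos. G2 was lower under nos alone, at 13.5 RPM in nos piwi knockdown and 23.6 RPM in nos white knockdown (0.589-fold), and level under tj (1.02-fold). G6 was 1.72-fold higher under tj (73.3 RPM in piwi, 42.2 RPM in white knockdown) and 1.05-fold under nos.

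**Figure D3:**
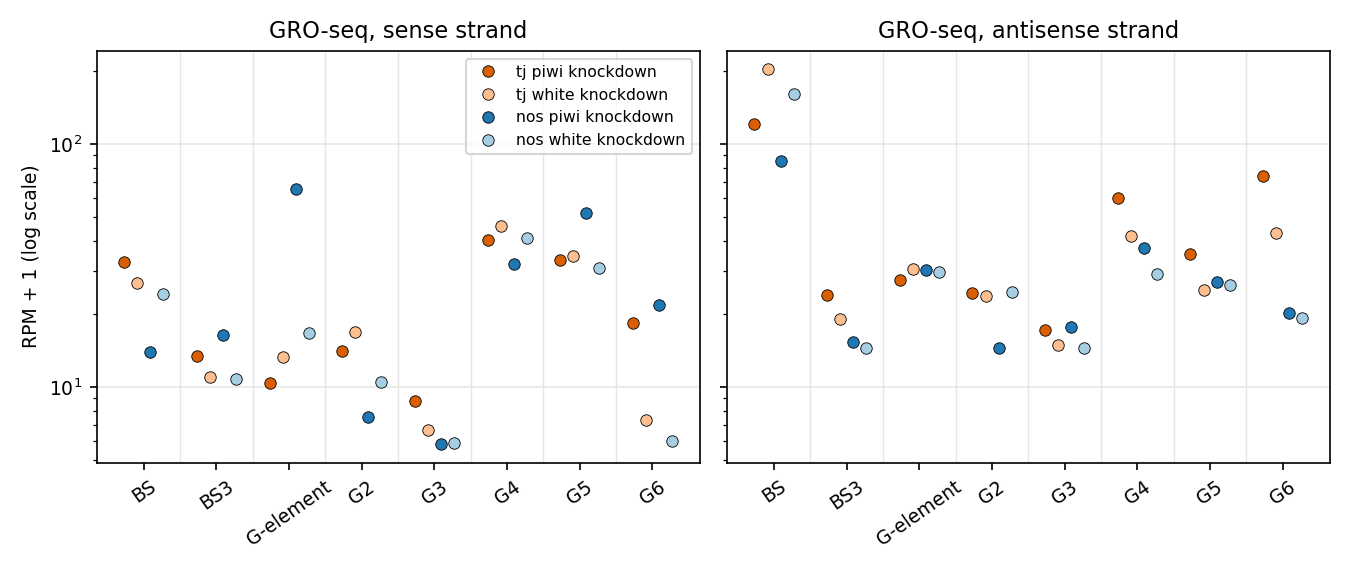
GRO-seq level of each member, as RPM + 1 on a log axis, for the sense strand (left) and the antisense strand (right), with 1 point per condition. Sense RNA of the G-element is highest in nos piwi knockdown (64.7 RPM), and antisense RNA of BS is lower in both piwi knockdowns (120 and 84.4 RPM) than in the white knockdowns (202 and 160 RPM).

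Antisense steady-state RNA was where BS and G2 were most prominent. Antisense RNA of BS was 10846 RPM in tj piwi knockdown, 12739 RPM in tj white knockdown, 14703 RPM in nos piwi knockdown and 11471 RPM in nos white knockdown. That was 19.2% to 23.0% of all antisense transposon RPM in a condition. G2 had 1578 RPM in tj piwi knockdown, 2176 RPM in tj white knockdown, 1759 RPM in nos piwi knockdown and 1707 RPM in nos white knockdown, or 2.76% to 3.29% of the antisense total. Neither passed 2-fold: BS was 0.851-fold under tj and 1.28-fold under nos, and G2 0.725-fold and 1.03-fold. All 4 ratios lay below that of the median family, so after centring the ratios of BS and G2 under nos are below 1 as well. Antisense RNA of BS under nos was thus 0.531-fold the control in GRO-seq and 1.28-fold in RNA-seq before centring.

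The other 6 members had at most 14.0 RPM of antisense RNA, reached by the G-element in nos piwi knockdown. Under nos, BS3, the G-element and G5 passed the mark at 2.13-fold, 2.04-fold and 2.33-fold, with 4.14, 14.0 and 4.30 RPM in nos piwi knockdown and 1.42, 6.38 and 1.27 RPM in nos white knockdown. G6 was counted too, at 3.03 RPM in nos piwi knockdown, but it was listed at 0 in nos white knockdown, so no fold is given. The calls of BS3, the G-element and G5 were lost on centring, at log2 ratios of 0.16, 0.10 and 0.30, on division by the input ratio, at 1.71-fold, 1.29-fold and 1.86-fold, and with a pseudocount of 5 RPM. The 4 of 8 compare with 48.6% of 109 families. Under tj 0 of 8 were higher, where the background was 17.4% higher and 0.917% lower, and the G-element had the lowest ratio of the members, 0.648-fold (5.60 RPM in tj piwi knockdown, 9.18 RPM in tj white knockdown).

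Strand make-up set the members apart from each other. G2 was the most antisense family of the RNA-seq table in all 4 conditions, with 99.6% to 99.8% of its RPM on the antisense strand. BS was 89.3% to 93.4% antisense, G3 74.1% to 82.9% and BS3 50.5% to 65.0%. G4 and G5 were mostly sense, with 20.2% to 34.9% and 26.5% to 39.9% antisense. The median family lay at 32.7% to 43.4%.

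The strand balance of the G-element and G6 differed between knockdowns. RNA of the G-element was 25.0% antisense in nos piwi knockdown, against 86.6% in nos white knockdown, while under tj it was 68.0% in piwi and 71.4% in white knockdown. G6 was 29.8% antisense in tj piwi knockdown and 59.4% in tj white knockdown, but under nos the order was opposite, with 16.0% in nos piwi knockdown and 0% in nos white knockdown, where both strands were under 1 RPM. In nascent RNA the G-element showed the same shift, with 31.2% antisense in nos piwi knockdown and 64.6% in nos white knockdown, and G6 had 48.1% in nos piwi knockdown and 78.6% in nos white knockdown. Under tj nascent RNA of G6 was mostly antisense in both, at 80.8% in piwi and 87.0% in white knockdown. G2, which was almost wholly antisense in RNA-seq, was 59.0% to 71.2% antisense in GRO-seq. The median family was itself more antisense there, at 57.3% in tj piwi knockdown and 60.2% in tj white knockdown. Under nos it was at 47.2% in piwi and 55.8% in white knockdown. In tj white knockdown G2, at 59.0%, was below the median family.

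Families differ in length and copy number, so their levels were compared as RNA-seq RPM over input DNA RPM of the same line. On that scale sense RNA of BS was 2.73 in tj piwi knockdown, 1.81 in tj white knockdown, 3.99 in nos piwi knockdown and 3.21 in nos white knockdown, where the median family had 0.0355, 0.0192, 0.0444 and 0.0169. BS ranked 2 to 7 of 119. Antisense RNA of BS per input DNA was 24.8 in tj piwi knockdown, 25.6 in tj white knockdown, 33.4 in nos piwi knockdown and 26.8 in nos white knockdown, rank 1 of 119 in each. G2 had rank 5 in each, with 5.84, 6.70, 5.29 and 4.92 in the same order.

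All other members were below BS on the sense strand by a wide margin. The G-element was at 0.0943 RNA-seq RPM per input RPM in nos piwi knockdown and 0.00348 in nos white knockdown, rank 42 and rank 110. G6 was at 0.0956 in nos piwi knockdown and 0.00454 in nos white knockdown, rank 41 and rank 107. Both stood among the lower families in the control and above the median family in piwi knockdown. G4 kept to 0.0230 to 0.0352 over the 4 conditions.

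Input DNA itself differed between the lines. Under nos, reads of G6 in the input were 167 RPM in piwi and 95.4 RPM in white knockdown, a ratio of 1.75 (95% counting interval 1.498 to 2.05), and the G-element was at 445 and 283 RPM, a ratio of 1.57 (1.43 to 1.72). These had rank 3 and rank 4 from the highest among 116 families with 100 reads or more in both libraries. G5 (1.25), BS3 (1.24) and G3 (1.23) also had intervals above 1, so 5 of 8 members did and 0 lay below, beside 58.6% and 6.9% of all families. Centred on the median family, whose ratio was 1.13, the G-element, G5 and G6 lay above it and BS, G2 and G4 below, 3 members each.

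Under tj the input ratio of G6 was 1.38 (1.21 to 1.57), with 197 RPM in piwi and 143 RPM in white knockdown. BS and G2 were lower, at 0.880 (0.813 to 0.953) and 0.832 (0.754 to 0.919). The background was 43% of 114 families above 1 and 10.5% below, and after centring the G-element was below as well. The members past the mark in sense RNA thus also had input ratios above 1, and the part of input DNA in their RNA ratios was not tested. Divided by the input ratio, sense RNA under nos was still 13.8-fold for the G-element, 6.76-fold for G6 and 2.60-fold for G5, and nascent sense RNA was 2.49-fold for the G-element and 2.08-fold for G6. Under tj the same division left G6 at 1.70-fold in RNA-seq and 1.83-fold in GRO-seq.

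**Figure D4:**
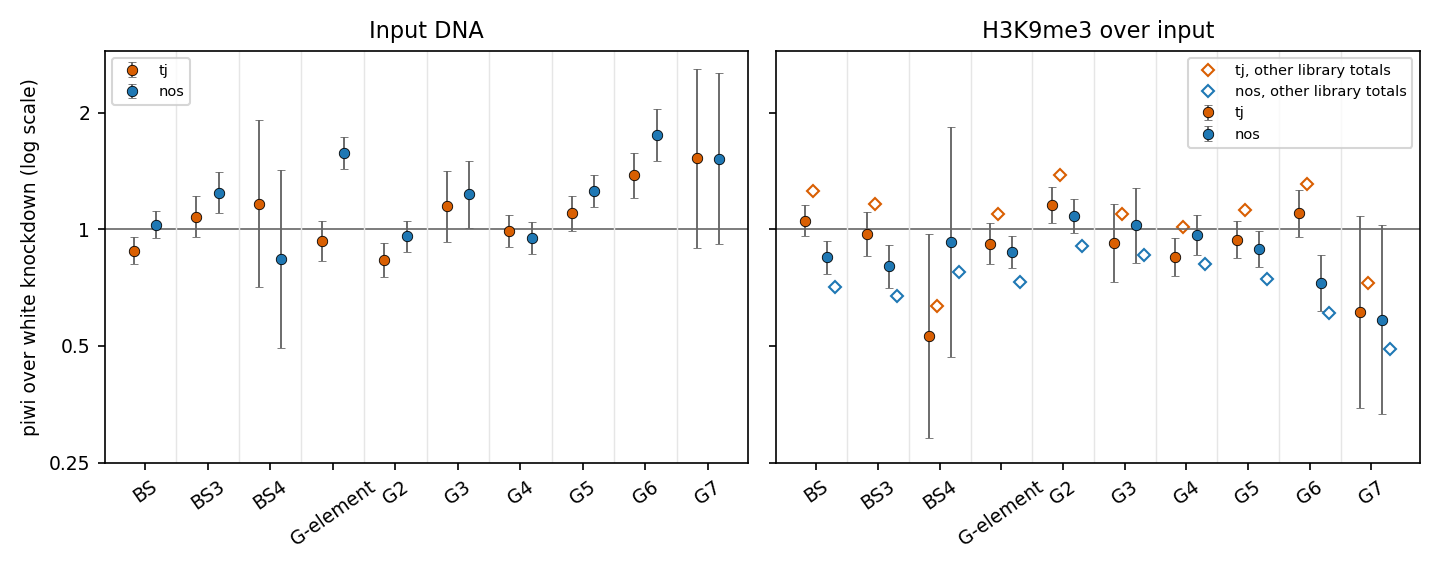
Ratio of piwi over white knockdown for input DNA (left) and for H3K9me3 over input (right), on a log axis, for all 10 members under both drivers, with 95% counting intervals. Open diamonds, labelled other library totals, give the ratio with the authors' scaling of the H3K9me3 libraries and the input left unscaled. G6 (1.75) and the G-element (1.57) lead in input DNA under nos, and BS4 and G7 have wide intervals.

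H3K9me3 over input allows members to be compared with each other, since length and copy number enter both libraries. The G-element carried the most, at 10.9 (95% counting interval 9.99 to 11.9) in tj piwi knockdown, 11.9 (10.9 to 12.9) in tj white knockdown, 8.93 (8.41 to 9.48) in nos piwi knockdown and 10.2 (9.48 to 11.04) in nos white knockdown, rank 3 or 4 of 114 to 117 families. G6 came next, at 9.10, 8.28, 6.74 and 9.29 in the same order of conditions. In nos white knockdown the interval of G6 (8.15 to 10.6) overlapped that of the G-element, so their order is not separated there. G2, G5 and BS3 lay between 4.85 and 6.09 and their intervals overlapped, apart from those of G2 (4.52 to 5.21) and BS3 (5.51 to 6.69) in nos white knockdown. G3 followed at 3.46 to 4.15.

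BS and G4 had the least of the 8 well-covered members. BS was at 2.32 (2.17 to 2.48) in tj piwi knockdown, 2.20 (2.07 to 2.35) in tj white knockdown, 1.93 (1.79 to 2.07) in nos piwi knockdown and 2.28 (2.12 to 2.44) in nos white knockdown. G4 was at 1.78, 2.11, 1.67 and 1.73. The median family had 2.89, 3.33, 2.66 and 2.91, so BS and G4 lay below it and the other 6 above it in all 4 conditions. G7, on 22 to 39 input reads, ranged from 3.26 to 6.71 with wide intervals (4.31 to 10.4 in tj white knockdown). BS4, on 26 to 35 input reads, ranged from 1.34 to 2.52, below the G-element, G6, G2, G5 and BS3 by its interval in every condition.

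**Figure D5:**
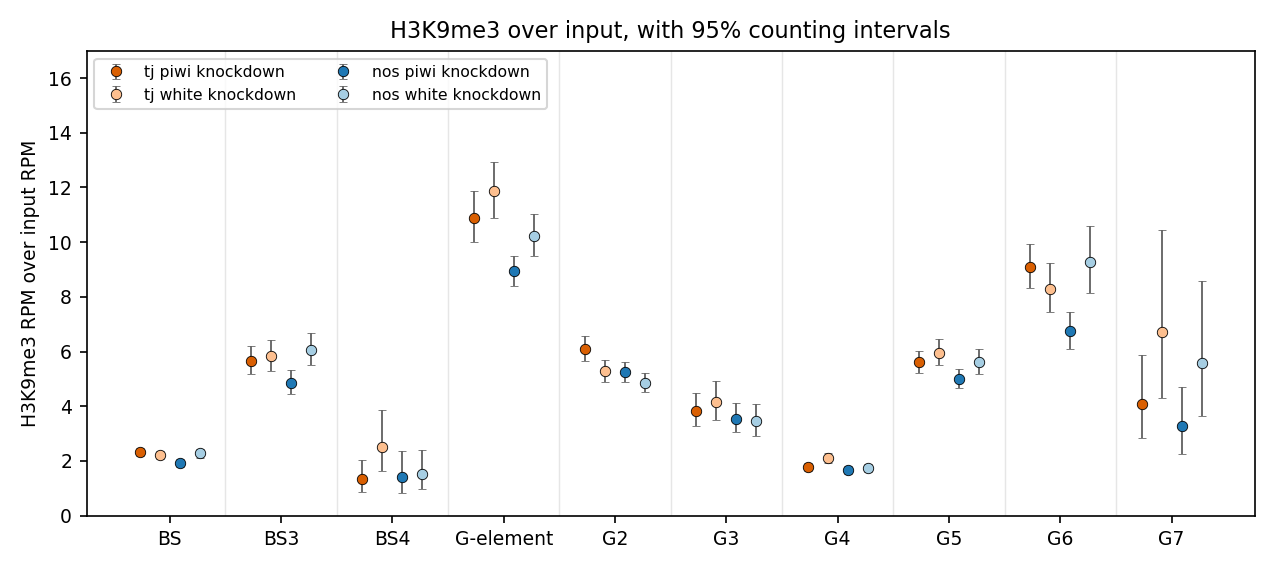
H3K9me3 RPM over input RPM of the 10 members in each condition, with 95% counting intervals. The G-element (8.93 to 11.9) and G6 (6.74 to 9.29) have the highest values, BS (1.93 to 2.32) and G4 (1.67 to 2.11) low ones.

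Between knockdowns, the mark moved by less than 2-fold for all 8 members with 100 reads or more in each library. Under nos, H3K9me3 over input of G6 was 0.725 times the control (0.615 to 0.855), BS3 0.801 (0.704 to 0.912), BS 0.846 (0.766 to 0.934), the G-element 0.873 (0.792 to 0.962) and G5 0.888 (0.798 to 0.986). Intervals thus lay below 1 for 5 of 8 members and above 1 for 0, where 60.9% of 115 families lay below and 6.09% above, and the member median of 0.880 was close to the 0.888 of all families. G2, G3 and G4 had intervals that held 1. Centred on the median family, 1 member lay below (G6) and 1 above (G2). All 3 G elements with more sense RNA under nos were among the 5 below 1. That direction rests on the input: in the H3K9me3 libraries alone the G-element was 1.37 times (1.33 to 1.41), G6 1.27 times (1.20 to 1.34) and G5 1.11 times (1.07 to 1.16) the control.

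Under tj, G4 was at 0.848 times the control (0.756 to 0.951) and G2 at 1.16 times (1.04 to 1.29), the second highest of 114 families, and the other 6 intervals held 1. So 1 of 8 members lay below 1 and 1 above, beside 47.4% and 4.39% of all families. Centred on the median family, whose ratio was 0.909, 3 members lay above (BS, G2 and G6) and 0 below, so the call of G4 was lost. G6 was at 1.099 (0.956 to 1.26). Of the rows under that minimum, BS4 was at 0.531 (0.290 to 0.972) and G7 at 0.610 (0.345 to 1.08) under tj, and at 0.926 (0.468 to 1.83) and 0.584 (0.333 to 1.02) under nos. The authors' deposited folds equal the H3K9me3 RPM ratios times a constant factor, 1.19 under tj and 0.839 under nos. The H3K9me3 libraries were thus scaled differently there, and the sources used here do not say how. This scaling, called the other totals here, was applied to H3K9me3 over input with the input left unscaled. With it G4 was at 1.01 under tj, and BS, BS3, G2, G5 and G6 had intervals above 1. Under nos it put the intervals of 6 members below 1, those of BS, BS3, the G-element, G4, G5 and G6.

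In the authors' deposited table, which compares the H3K9me3 libraries without input, 1 member had an adjusted p-value under 0.05 under tj, where 17 of 125 families did. This was G6, with a fold of 1.80 and an adjusted p-value of 0.00163 in the authors' deposited table. As RPM, its tj ratio was 1.51 (1.45 to 1.58) in the H3K9me3 libraries and 1.38 in the input. Over input it was at 1.099 (0.956 to 1.26), an interval that held 1. Under nos 0 members and 20 of 125 families passed in the authors' deposited table, with a fold of 1.15 and an adjusted p-value of 0.518 for the G-element. The sources used here do not say how p-values were obtained from single libraries.

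Other LINE-like elements were counted in the same way. Of 13 families of the jockey clade or the telomere past the filter, 8 were 2-fold or more higher in sense RNA of nos piwi knockdown, and the 13 ran from 337-fold for HeT-A, a telomeric retrotransposon, to 1.07-fold for jockey2, with a median log2 ratio of 1.51. Of 9 further LINE-like families 5 did, with the I-element highest at 5.41-fold and a median of 1.22. BS and G elements counted 3 of 8, with a median of 0.43. Under tj the counts were 1 of 8 for BS and G elements, 5 of 13 and 2 of 9. H3K9me3 over input under nos had a median ratio of 0.880 for BS and G elements, 0.705 for 13 families of the jockey clade or the telomere and 0.939 for 10 further families. No test compared these lists.

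Across the 4 sense log2 ratios (both assays, both drivers) of 113 families, the nearest families to each member were found by Euclidean distance. The G-element was nearest to copia (distance 1.47) and Max-element (1.55), both LTR retrotransposons, and G6 to McClintock (0.71) and micropia (1.03). G5 was nearest to Ivk (0.45) and diver2 (0.64). The other 5 members had closer neighbours than the G-element and G6: BS3 lay nearest to Doc2-element (0.32) and P-element (0.49), G3 to P-element (0.27) and rooA (0.35), G2 to looper1 (0.35) and Dm88 (0.60), G4 to HB (0.37) and opus (0.45), and BS to gypsy8 (0.54) and Rt1b (0.63). The nearest fellow member of G6 was the G-element and the reverse, at a distance of 2.48.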

How the data were processed

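RNA-seq and GRO-seq RPM per transposon family and strand, and ChIP-seq RPM in 4 input and 4 H3K9me3 libraries, were deposited by the authors. Per the submitters' processing notes, the ChIP-seq samples went through Bowtie2 2.0.0 and SICER 1.1 and the GRO-seq samples through Bowtie2 and DESeq 1.10.1. The RNA-seq samples had these same programs except SICER, and TopHat2 2.0.5 as well, and the build was dm3. The sources used here give neither the step of each program nor how reads of related families were assigned. The authors' tables of H3K9me3 per family give a fold (ratio) and p-values per the file headers. A further 6 columns there name no sample and were left out. Region lists and element sequences were not used here.

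Samples were grouped by title, with 1 sample per group, so no test between conditions was made. RNA ratios are log2 ratios of piwi to white knockdown after adding 1 RPM, for families averaging 1 RPM or more across the 4 conditions on that strand. ChIP-seq RPM were whole reads within 1e-06 at an inferred total per library, the smallest found in a search. Multiples of that total would give whole reads too, and narrower intervals. Reads at the smallest total gave the 95% intervals, from the sum of reciprocal reads, for families with at least 100 reads in each library used. The intervals cover counting error alone, since 1 sample per group holds no spread between flies or libraries. Reads lacking molecular identifiers can be copies of 1 molecule, so even the counting error may be understated. The interval calculation was run on simulated reads with counting error alone, so that run checks the calculation and cannot cover copied reads. The members were every row that fits the naming rule, and the non-members named were the 2 nearest per member, the highest and lowest of each list, and G5A, which was added after its values were seen. Members and lists were chosen with earlier results of these data known. Alternatives were pseudocounts of 0.1 and 5 RPM, no filter or 10 RPM, centring on the median, no input, other read minimums (30 reads, 40 RPM of input), other totals and, added after seeing the data, division by the input ratio. Computation used Python 3.11.15, numpy 2.4.6, pandas 2.3.3 and matplotlib 3.10.9.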

Additional observations from a re-analysis of the deposited data

Results flagged for a closer look

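For 5 measurements the log2 ratio of RPM + 1 had opposite signs under nos and tj and differed by at least 1 between them. With 1 sample per condition these differences were not tested. Sense RNA-seq of the G-element had a log2 ratio of 4.44 under nos and -0.36 under tj, a difference of 4.80. Antisense RNA-seq of the G-element had 1.03 under nos and -0.63 under tj (difference 1.65). Sense GRO-seq of the G-element had 1.97 under nos and -0.35 under tj (difference 2.32). Antisense RNA-seq of G5 had 1.22 under nos and -0.20 under tj (difference 1.42). Sense GRO-seq of BS ran the other way, with -0.79 under nos and 0.28 under tj (difference -1.07), and the tj value lies below the median family, so its sign turns on centring.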

How the results depend on the processing

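No paired analysis was possible because each group had 1 sample, and no replicate could be left out. A pseudocount of 0.1 RPM, no level filter, a minimum of 30 reads and a minimum of 40 RPM of input left every count of members within 1.5 times its value as given. A pseudocount of 5 RPM left 0 members past 2-fold in RNA-seq sense under tj, RNA-seq antisense under nos and GRO-seq sense under tj. A minimum of 10 RPM was passed by BS and the G-element in RNA-seq sense and by BS and G2 in RNA-seq antisense. It left 0 in RNA-seq sense under tj, 1 in RNA-seq sense under nos and 0 in RNA-seq antisense under nos. That 1 was the G-element, whose mean of 12.3 RPM passed only through its 42.0 RPM in nos piwi knockdown. Its values in the other conditions were 0.984 to 3.67 RPM, so its place in this count is no further support for its ratio. Centring gave 2 members, both lower, in RNA-seq sense under tj, 1 (G6) in RNA-seq antisense under nos, 0 in GRO-seq sense under tj and 4 in GRO-seq sense under nos (2 higher, 2 lower). It gave 1 lower member, BS, in GRO-seq antisense under tj and 1 under nos, and 2 H3K9me3 intervals off 1 under nos. It also took G5 out of the RNA-seq sense count under nos (2 members left). Division by the input ratio, added after seeing the data, left 0 in RNA-seq sense and 0 in GRO-seq sense under tj and 1 (G6) in RNA-seq antisense under nos. Under tj, 5 H3K9me3 intervals were off 1 without input (1 above, 4 below) and 5 with the other totals (5 above, 0 below), so the directions differed. Without input, 6 intervals were off 1 under nos (4 above, 2 below), where 0 above and 5 below were given with input. Reversed log2 ratios were those of G2 under tj without input (-0.057), of G4 under tj with the other totals (0.015) and, under nos without input, of the G-element (0.46), G5 (0.15) and G6 (0.35). Apart from the division by input and the 10 RPM minimum, which change what is measured, the cause was not tested. Depth limits BS4 and G7 in ChIP-seq, and the reads behind RNA-seq values under 1 RPM were not recovered.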

Other observations

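Steady-state and nascent antisense levels of BS and G2 were far apart. As a ratio of RNA-seq to GRO-seq RPM + 1 on the antisense strand, BS had 89.5 in tj piwi knockdown, 62.7 in tj white knockdown, 172 in nos piwi knockdown and 71.3 in nos white knockdown, and G2 had 64.9, 91.7, 122 and 69.6 in the same order. The median family had 0.152, 0.144, 0.269 and 0.140. Both ranked among the first 5 of 119 families in every condition. On the sense strand BS was at 36.6, 33.6, 126 and 57.1, whereas G2 was at 0.333, 0.397, 1.15 and 0.660, so the excess of G2 was on its antisense strand. The assays were scaled separately, so the ratios place families against each other and are not a rate.

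G6 had low antisense ratios of RNA-seq to GRO-seq in 3 of the 4 conditions. It was at 0.0371 in tj piwi knockdown, the lowest of 119 families, and 0.0634 in tj white knockdown (rank 19 from the lowest). Under nos it was at 0.199 in nos piwi knockdown (rank 46 from the lowest) and 0.0518 in nos white knockdown (rank 13), where its antisense RNA was listed at 0. The lines also differed in its nascent antisense RNA without any knockdown of piwi, with 18.3 RPM in nos white knockdown and 42.2 RPM in tj white knockdown. Input DNA of G6 was 95.4 RPM in nos white knockdown and 143 RPM in tj white knockdown.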
